A study of Oryza sativa with 8 samples.

Results

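The response of wild-type rice seedlings to 2-nitroaniline was described gene by gene in cultivar ZH11 (Zhonghua 11, a japonica rice). ZH11 plants that had received 0.8 mM 2-nitroaniline for 8 h were set against untreated ZH11 plants, with 2 RNA libraries in each group. Plants were 2 weeks old, were raised in hydroponic medium and kept at 25 °C, and whole seedlings were taken. Each library came from 20 pooled plants, so that differences between single plants were not measured. Expression was given as TPM, the share of transcripts scaled to a fixed total, which corrects for gene length and library size. A gene was included when it reached 1 TPM in at least 2 of the 4 ZH11 libraries, which 24137 of the 57403 genes in the matrix did. Near that limit, 139 included genes had a second-highest value of 1 to 1.05 TPM and 159 genes not included had one of 0.95 to 1 TPM. The other 4 libraries of the study, 2 from treated and 2 from untreated plants of line OE1, entered the same statistical fit and served as the comparison. By its label OE1 overexpresses ScOYE3, the yeast old yellow enzyme Oye3, from a promoter not named in the sources used here. Separate treatment of the pools within a group is not stated, and p-values therefore reflect the spread of these particular samples alone, possibly a technical one.

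2-Nitroaniline is an aromatic amine with a nitro group. Plants handle foreign aromatic compounds through enzymes that first oxidise or reduce the molecule, among them cytochromes P450, and through transferases that then attach a sugar, a malonyl group or glutathione. The conjugates are moved by membrane transporters into the vacuole or the cell wall. The same enzyme families also build the plant's own phenolics, hormones and defence compounds, so membership of a family does not say which substrate a protein handles.

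The 4 ZH11 libraries held 42.1 to 51.6 M trimmed reads. Replicate 2 of the treated plants had the fewest reads and a GC content of 52.0%, against 53.5% to 54.6% in the other 3 ZH11 libraries. It lay apart on the first principal component of the ZH11 libraries, which held 61.6% of their variance. The treated replicates differed by a median of 0.45 on the log2(TPM + 1) scale and the untreated replicates by 0.20. A gene-length gradient ran through replicate 2 of the treated plants. Relative to the untreated mean, the median change of genes of up to 500 nt was -0.34 in treated replicate 2 and 0.08 in treated replicate 1. Genes over 5000 nt had medians of 0.98 in treated replicate 2 and -0.09 in treated replicate 1. For that reason each change is given with the values of both treated libraries. Replicate 2 of each ZH11 group also had longer trimmed reads, averaging 149 nt in treated plants and 150 nt in untreated plants, against 146 nt and 145 nt in replicate 1. Root and shoot RNA were both present. The 27 shoot marker genes, for light-harvesting proteins and the small subunit of Rubisco, summed to 55741 and 48180 TPM in treated plants and to 64618 and 64482 TPM in untreated plants. The 8 root transporter markers summed to 356 and 424 TPM in treated plants and to 390 and 351 TPM in untreated plants. Of these 8 root genes 6 were among the included genes, 1 NRT2 gene was listed at 0 in all ZH11 libraries, and none was called.

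Few genes were called as changed by treatment, with 2 libraries per group. A gene was called when limma, fitted to log2(TPM + 1) over 25281 genes and all 8 libraries, gave a Benjamini-Hochberg adjusted p under 0.05 with a log2 fold of 1 or more in either direction. Of the 24137 genes 44 rose, and 0.174% of the 25281 genes tested were called higher. Another 29 fell, and 0.115% of the genes tested were called lower. At an unadjusted p under 0.05 the counts over all genes tested were 1369 higher and 1834 lower. Log2 folds of the called genes ran from 1.01 to 3.54 among those that rose and from -3.07 to -1.01 among those that fell, with a median over all 24137 genes of 0.02. The number of calls depended on single libraries. It was 1282 higher and 1353 lower without treated ZH11 replicate 1, 91 and 80 without treated replicate 2, 6 and 5 without untreated replicate 1, and 0 and 0 without untreated replicate 2, where 823 and 1268 genes had an unadjusted p under 0.05. Without any 1 of the OE1 libraries it was 5 to 7 higher and 2 lower. With the ZH11 libraries alone it was 0 and 0, where 551 higher and 693 lower genes had an unadjusted p under 0.05. Each SE and p-value rested on a spread per gene pooled over all 4 groups. Treated OE1 replicates differed by a median of 0.16 and untreated OE1 replicates by 0.10, less than the ZH11 replicates of the same treatment. Together 73 genes, 0.289% of those tested, were called in either direction. All 73 had treated and untreated ZH11 libraries that did not overlap, and in 69 of them each treated library lay at least 2-fold from the untreated mean. The call was made on these same libraries and favours such genes, so these counts describe the calls and are no separate support. Since whole seedlings were ground, a change in the number of cells of a type and a change in RNA per cell cannot be told apart.

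**Figure D1:**
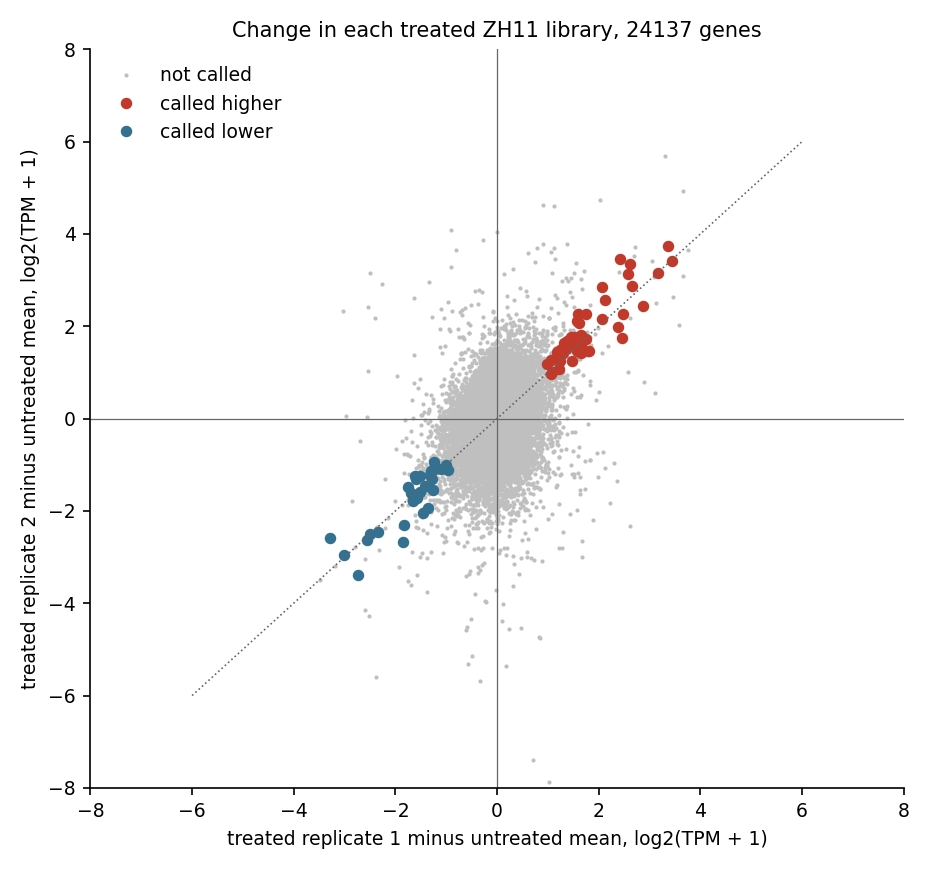
Change of each of the 24137 genes in treated ZH11 replicate 1 (horizontal axis) and replicate 2 (vertical axis), each minus the mean of the 2 untreated libraries on the log2(TPM + 1) scale. Red and blue points are the 44 genes called higher and the 29 called lower, which lie along the dotted line of equal change. The call itself favours genes with like changes in both treated libraries. The cloud of other genes is taller than it is wide.

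A description that needs no pooled spread gave a related picture. The gap of a gene was taken as the distance between the nearest treated and untreated ZH11 libraries on the log2(TPM + 1) scale. It was at least 1, a 2-fold separation, in favour of the treated plants for 107 genes, 0.443% of the 24137, and in favour of the untreated plants for 87 genes, 0.36%. Of these 194 genes 67 were called. Of the other 127, 64 had a length of up to 500 nt, a class that held 1214 of all 24137 genes. Groups that merely did not overlap were common, with 16.2% of genes higher and 18.6% lower in treated plants. The treated libraries often disagreed on size. In treated replicate 1 348 genes lay at least 2-fold above the untreated mean and in treated replicate 2 1432 did, of which 157 were shared. On the lower side the counts were 331 in treated replicate 1 and 1599 in treated replicate 2, with 158 shared.

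Genes for enzymes that modify small molecules made up 19 of the 44 genes that rose. Across 17 families of such enzymes 915 genes were included, of which 19 rose (2.08%, against 0.174% of all genes tested), 5 fell (0.546%, against 0.115%) and 891 were not called. Their joint median log2 fold was -0.06, beside 0.02 over all 24137 genes. The lists were chosen with results of these data known, and the shares are descriptions.

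Cytochromes P450 are heme enzymes that insert oxygen into their substrates. The P450 list held 211 genes, and its number of calls moved with single libraries: 15 genes were called higher without treated ZH11 replicate 1, 2 without untreated replicate 1, 0 without untreated replicate 2 and 2 or 3 without any 1 OE1 library. In the fit of all libraries 6 rose (2.84%, against 0.174% of all genes tested) and 1 fell (0.474%, against 0.115%). Another 204 were not called, and the median log2 fold was 0.0046. LOC_Os03g55240, on chromosome 3 and matched in Swiss-Prot to a P450 of the CYP81 family, had 174 and 226 TPM in treated plants, against 16.2 and 16.0 TPM in untreated plants. Its log2 fold of 3.54 (SE 0.18, n = 2 libraries per group, limma adjusted p = 0.0013) was the largest among the called genes on the log2(TPM + 1) scale. As a ratio of mean TPM it was 12.4-fold, less than for LOC_Os02g28220 at 18.6-fold and LOC_Os09g34250 at 13.0-fold. The preceding locus in number, LOC_Os03g55230, matched to a hydroxylase of the isoflavone pathway of licorice, had 63.5 and 54.9 TPM in treated plants and 11.99 and 9.46 TPM in untreated plants. Both genes were high in both treated libraries, with no overlap.

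LOC_Os07g23570 on chromosome 7, matched to the Arabidopsis P450 CYP709B2, had 40.4 and 40.2 TPM in treated plants, against 3.65 and 3.57 TPM in untreated plants, a log2 fold of 3.16 (SE 0.16, limma adjusted p = 0.0013). The replicates of each group nearly coincided. LOC_Os06g03930, matched to a pine P450 of the CYP704 family, had 153 and 264 TPM in treated plants and 33.6 and 38.6 TPM in untreated plants. Treated replicate 2 was the higher of the treated pair for that gene, and the groups stayed apart. The remaining pair, LOC_Os07g44110 and LOC_Os07g44140, lies within a run of P450 loci on chromosome 7 and also has CYP709B2 as its match. LOC_Os07g44110 had 24.5 and 36.0 TPM in treated plants against 7.48 and 7.63 TPM in untreated plants, and LOC_Os07g44140 had 16.3 and 20.4 TPM against 6.71 and 4.74 TPM. The P450 gene between them in number, LOC_Os07g44130, had 8.83 and 11.9 TPM in treated plants and 6.98 and 7.09 TPM in untreated plants and was not called (log2 fold 0.49, limma adjusted p = 0.348). On the other side, LOC_Os03g45619, matched to CYP87A3, fell to 14.6 and 18.0 TPM in treated plants, against 36.3 and 34.9 TPM in untreated plants (limma adjusted p = 0.0494). It kept its call in 7 of 13 alternatives that used all the libraries of the comparison and was lost, among others, with a pseudocount of 5 and no filter.

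UDP-glycosyltransferases attach a sugar from a nucleotide sugar to an acceptor and so make it more soluble. There were 109 such genes, of which 4 rose (3.67%, against 0.174% of all genes tested), none fell and 105 were not called. The list median was -0.04. The number that rose was 13 without treated ZH11 replicate 1, 2 without untreated replicate 1, 0 without untreated replicate 2 and 1 or 2 without any 1 OE1 library. LOC_Os09g34250 on chromosome 9, whose match is UGT13248 of barley, an enzyme known there for glucosylating the fungal toxin deoxynivalenol, had 57.8 and 56.6 TPM in treated plants, against 4.73 and 4.09 TPM in untreated plants. Its log2 fold was 3.43 (SE 0.15, limma adjusted p = 0.0013), and the replicates of each group were close. The authors' deposited table lists estimated counts of 1659 and 1099 reads for it in treated plants and 131 and 103 in untreated plants. LOC_Os01g08440 had 87.9 and 101 TPM in treated plants against 16.3 and 10.4 TPM in untreated plants, and LOC_Os01g08090 had 31.5 and 35.5 TPM against 9.53 and 9.31 TPM. LOC_Os07g13770, matched to a maize enzyme that glucosylates benzoxazinoids, had 10.1 and 10.6 TPM in treated plants against 2.60 and 2.70 TPM in untreated plants. In all 4 genes the lower treated library was well above the higher untreated one. The glycosyltransferase gene LOC_Os07g05420 lay in the other direction without a call, with 2.2 and 1.24 TPM in treated plants and 5.92 and 5.54 TPM in untreated plants (limma adjusted p = 0.0788).

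Glutathione S-transferases join the tripeptide glutathione to reactive compounds. Of 77 genes 3 rose (3.90%, against 0.174% of all genes tested), none fell and 74 were not called. All 3 calls were lost with no filter on low TPM, with library weights, with the ZH11 libraries alone, and when untreated ZH11 replicate 1, untreated ZH11 replicate 2 or any OE1 library was left out, while 6 genes were called without treated replicate 1 and 8 without treated replicate 2. LOC_Os09g20220, the GSTU1 gene by its rice match, had 23.2 and 17.1 TPM in treated plants, against 1.79 and 2.97 TPM in untreated plants, a log2 fold of 2.65 (SE 0.28, limma adjusted p = 0.0172). LOC_Os10g22070 had 34.2 and 31.6 TPM in treated plants and 12.9 and 9.17 TPM in untreated plants. LOC_Os10g38489, the most abundant of the 3, had 196 and 178 TPM in treated plants and 81.7 and 86.0 TPM in untreated plants. All 3 were higher in both treated libraries. A further gene of chromosome 10, LOC_Os10g38350, was past the gap with 12.2 and 7.38 TPM in treated plants and 2.35 and 1.96 TPM in untreated plants, and missed the call (limma adjusted p = 0.0788). All 3 of these chromosome 10 genes have GSTU6 as their rice match, so the split of reads between near copies is uncertain, and LOC_Os10g38489 was not called with TMM scaling.

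BAHD acyltransferases add acyl groups, malonyl among them, to phenolic glycosides and other acceptors. Of 68 genes 2 rose (2.94%, against 0.174% of all genes tested) and none fell. LOC_Os02g28220 and LOC_Os02g28170 lie on chromosome 2 with 3 loci between them, and both match an Arabidopsis malonyltransferase of phenolic glucosides. LOC_Os02g28220 had 9.32 and 16.0 TPM in treated plants against 0.59 and 0.77 TPM in untreated plants, a log2 fold of 2.98 (SE 0.26, limma adjusted p = 0.0128). LOC_Os02g28170 had 31.0 and 42.7 TPM in treated plants against 7.26 and 5.61 TPM in untreated plants. Single members of 4 other enzyme families rose too, where 0.174% of all genes tested were called higher. They were 1 of 29 aldo-keto reductase, 1 of 19 aldehyde dehydrogenase, 1 of 30 glycoside hydrolase family 1 and 1 of 78 2-oxoglutarate oxygenase genes. In other families of such enzymes no gene rose, among them 111 short-chain dehydrogenase, 57 carboxylesterase and 43 zinc-binding dehydrogenase genes. The aldo-keto reductase gene LOC_Os04g37490 had 31.6 and 30.9 TPM in treated plants and 9.51 and 9.39 TPM in untreated plants. The aldehyde dehydrogenase gene LOC_Os02g49720 had 275 and 219 TPM in treated plants and 88.7 and 70.9 TPM in untreated plants. The beta-glucosidase 22 gene LOC_Os05g30350, of a family that removes glucose from conjugates, had 73.2 and 88.2 TPM in treated plants against 31.0 and 32.9 TPM in untreated plants. LOC_Os04g39980, matched to the rice dioxygenase DAO that oxidises the auxin indole-3-acetic acid, had 74.8 and 63.6 TPM in treated plants and 25.6 and 27.0 TPM in untreated plants. Outside the lists, LOC_Os03g05910, matched to an Arabidopsis monooxygenase, had 51.3 and 54.5 TPM in treated plants against 11.2 and 11.8 TPM in untreated plants (log2 fold 2.11, SE 0.14, limma adjusted p = 0.0056).

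**Figure D2:**
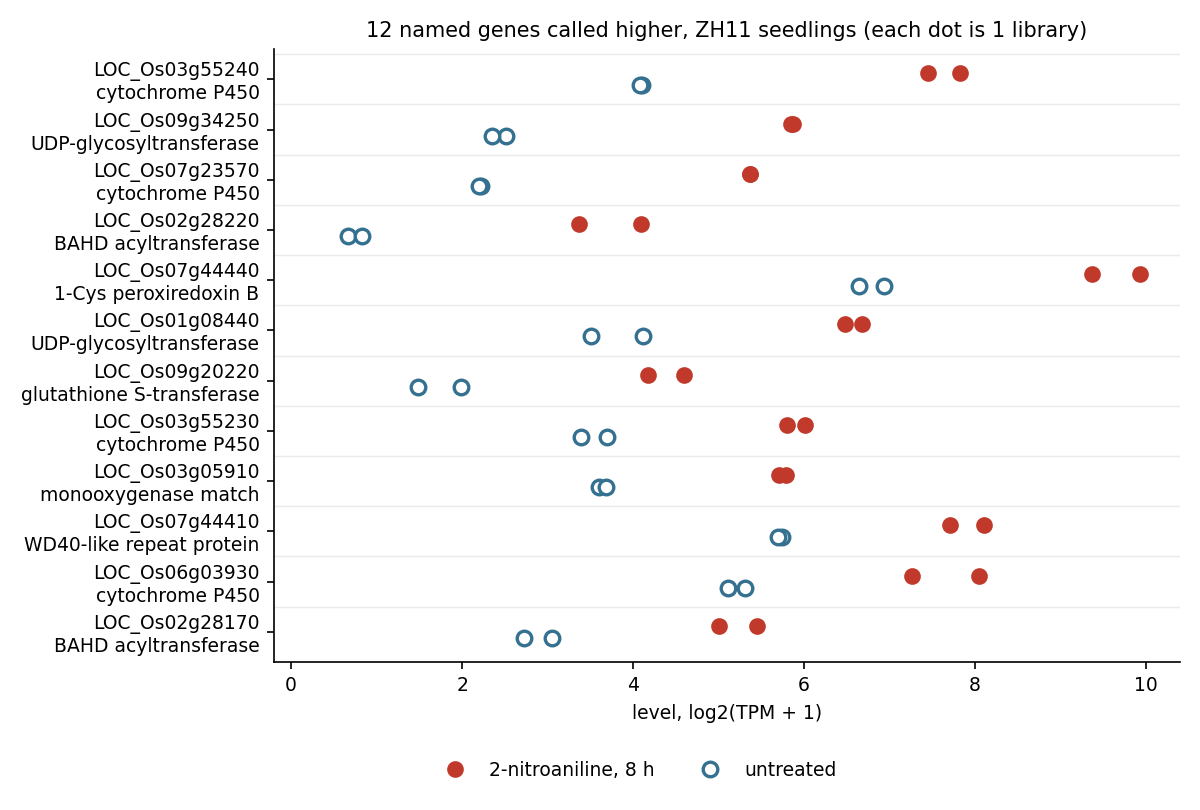
Level of the 12 named genes with the widest gap among those called higher, on the log2(TPM + 1) scale, with each ZH11 library as a dot (red filled, treated; blue open, untreated). In every row both treated libraries lie to the right of both untreated ones, which follows from the choice of rows by gap. Rows run from the P450 gene LOC_Os03g55240, at 174 and 226 TPM against 16.2 and 16.0 TPM, down to the acyltransferase gene LOC_Os02g28170.

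The old yellow enzymes of rice are flavoproteins that reduce activated double bonds, and one of them makes a jasmonate precursor. None of the 11 included genes was called by limma, and 2 had an unadjusted p under 0.05, as did 3145 of all 24137 genes. Their log2 folds ran from -0.63 to 0.79, and the lowest limma adjusted p was 0.287. LOC_Os06g11210, the most abundant of them in treated plants, had 74.3 and 98.2 TPM there and 57.6 and 69.7 TPM in untreated plants. The jasmonate-type member LOC_Os08g35740 had 36.9 and 45.4 TPM in treated plants and 46.7 and 48.2 TPM in untreated plants. No ABC transporter gene among 108 and no MATE transporter gene among 42 was called by limma, with 16 and 11 genes at an unadjusted p under 0.05. The widest gap among MATE genes was in LOC_Os06g29900, with 13.0 and 41.1 TPM in treated plants and 3.09 and 5.88 TPM in untreated plants (limma adjusted p = 0.191). The ABC genes had a median of -0.05 in treated replicate 1 and 0.45 in treated replicate 2.

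Among genes of peroxide metabolism the 1-Cys peroxiredoxins stood out. Peroxiredoxins reduce peroxides through a reactive cysteine. The peroxiredoxin list, which also takes in related thioredoxin-fold proteins, had 33 genes, of which 2 rose (6.06%, against 0.174% of all genes tested). LOC_Os07g44440, 1-Cys peroxiredoxin B, reached 663 and 977 TPM in treated plants, against 98.8 and 122 TPM in untreated plants, a log2 fold of 2.86 (SE 0.20, limma adjusted p = 0.0065). Its neighbour LOC_Os07g44430, 1-Cys peroxiredoxin A, had 194 and 117 TPM in treated plants against 33.9 and 34.7 TPM in untreated plants. They are paralogs, so the split of reads between them is uncertain, and LOC_Os07g44430 was not called with TMM scaling. LOC_Os07g44410, a WD40-like repeat protein gene with 1 locus between it and LOC_Os07g44430, had 274 and 207 TPM in treated plants and 52.4 and 51.0 TPM in untreated plants. Counting only called genes that follow each other in locus order, 6 pairs lay at most 10 loci apart, and these 3 genes formed 2 of the pairs. The share of such pairs among all genes was not counted.

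The peroxidase list, chosen by protein domain and not limited to the secreted class III enzymes of the cell wall, had 112 genes. Of these 2 rose (1.79%, against 0.174% of all genes tested). LOC_Os03g22020 had 14.8 and 17.5 TPM in treated plants against 4.85 and 5.14 TPM in untreated plants, while its neighbour LOC_Os03g22010 lay the other way without a call, with 3.2 and 4.45 TPM in treated plants and 10.6 and 11.5 TPM in untreated plants (limma adjusted p = 0.0608). The other gene that rose, LOC_Os02g14430, had 40.3 and 47.2 TPM in treated plants and 18.9 and 19.0 TPM in untreated plants. Catalases break down hydrogen peroxide, and none of the 3 catalase genes was called by limma. Of the 3, 2 had an unadjusted p under 0.05, as did 3145 of all 24137 genes. Catalase C, LOC_Os03g03910, had 876 and 1638 TPM in treated plants and 526 and 493 TPM in untreated plants (log2 fold 1.23, limma adjusted p = 0.148). Catalase B, LOC_Os06g51150, had 358 and 448 TPM against 228 and 251 TPM, and catalase A, LOC_Os02g02400, had 1161 and 2013 TPM against 1470 and 1494 TPM. The A gene was below both untreated libraries in treated replicate 1 and above both in replicate 2.

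Further genes of metabolism and defence rose. The pyruvate, phosphate dikinase 1 gene LOC_Os05g33570, whose enzyme makes phosphoenolpyruvate, had 238 and 327 TPM in treated plants and 73.3 and 81.5 TPM in untreated plants. The aminotransferase gene LOC_Os05g39770, matched to an alanine-glyoxylate aminotransferase homolog, had 75.8 and 89.4 TPM in treated plants and 34.5 and 28.5 TPM in untreated plants. A pathogenesis-related class 10 gene, LOC_Os12g36860, had 17.6 and 13.6 TPM in treated plants and 4.53 and 4.05 TPM in untreated plants. All 3 genes were higher in each treated library than in either untreated one. Another class 10 gene close by, LOC_Os12g36840, singled out after its values were seen, lay the other way without a call, with 0.55 and 0.42 TPM in treated plants and 3.15 and 5.54 TPM in untreated plants (limma adjusted p = 0.0706). LOC_Os11g47560, matched to xylanase inhibitor protein 2, which blocks cell-wall-degrading enzymes of microbes, had 73.5 and 73.4 TPM in treated plants and 27.2 and 21.2 TPM in untreated plants. A neighbouring match to the same protein, LOC_Os11g47550, had 0.60 and 0.18 TPM in treated plants and 27.1 and 2.32 TPM in untreated plants, where the untreated replicates were themselves far apart, and was not called (limma adjusted p = 0.259). Other genes that rose were chosen here after their values were seen: the fumarylacetoacetase gene LOC_Os02g10310, of tyrosine breakdown, with 272 and 339 TPM in treated plants and 104 and 114 TPM in untreated plants, and the ferritin-1 gene LOC_Os12g01530, of iron storage, with 150.4 and 142 TPM in treated plants and 71.7 and 72.2 TPM in untreated plants. The formate dehydrogenase 2 gene LOC_Os06g29220, whose enzyme oxidises formate, had 7.65 and 8.60 TPM in treated plants and 2.18 and 2.55 TPM in untreated plants. LOC_Os08g42590, an mtN19 gene of higher abundance, had 438 and 626 TPM in treated plants and 124 and 136 TPM in untreated plants. LOC_Os07g47400, matched to the soybean protein SRC2, had 24.0 and 27.4 TPM in treated plants and 11.7 and 11.5 TPM in untreated plants, with a log2 fold of 1.08 in ZH11 and 1.02 in OE1. The ferritin gene kept its call in 3 of 13 alternatives that used all the libraries of the comparison and was lost, among others, with TMM scaling, median-of-ratios scaling and the length curve removed.

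Of 676 transcription factor genes in 9 families 1 rose, 1 fell and 674 were not called. Each direction held 0.148% of them, a share near the 0.174% of all genes tested that were called higher and the 0.115% called lower. The NAC48 gene LOC_Os05g34830 had 37.9 and 44.5 TPM in treated plants, against 15.7 and 15.2 TPM in untreated plants, a log2 fold of 1.35 (SE 0.14, limma adjusted p = 0.0173). The WRKY76 gene LOC_Os09g25060, known in rice as a repressor of defence responses, fell to 2.92 and 1.81 TPM in treated plants, against 13.5 and 12.5 TPM in untreated plants. The heat stress factor gene HSFA4D, LOC_Os05g45410, was past the gap without a call, with 8.38 and 10.3 TPM in treated plants and 3.22 and 2.80 TPM in untreated plants (limma adjusted p = 0.0592). The 27 HSP20 genes had a median of -0.17 in treated replicate 1 and -0.21 in treated replicate 2, with none called by limma and 6 at an unadjusted p under 0.05. The 18 HSP70 genes had a median of -0.31 in treated replicate 1 and 0.46 in treated replicate 2, with none called by limma and 0 at an unadjusted p under 0.05. Over all 24137 genes 3145 had an unadjusted p under 0.05.

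Of 22 plant O-methyltransferase genes 2 fell and none rose, where 0.115% of all genes tested were called lower, and the list median was -0.42, with -0.35 in treated replicate 1 and -0.59 in treated replicate 2. The 2 genes match the rice acetylserotonin O-methyltransferases, enzymes known for the closing step of melatonin synthesis. The ASMT2 match LOC_Os10g02880 had 0.22 and 0.27 TPM in treated plants, against 9.46 and 8.26 TPM in untreated plants, a log2 fold of -2.98 (SE 0.22, limma adjusted p = 0.0079). ASMT1 (LOC_Os09g17560) had 7.70 and 7.04 TPM in treated plants and 43.0 and 43.65 TPM in untreated plants, a log2 fold of -2.41 (SE 0.14, limma adjusted p = 0.0021). In both genes the replicates of each group lay close together. Of 12 carboxyl methyltransferase genes 1 fell. LOC_Os06g13390, matched to a maize anthranilate methyltransferase, had 0.05 and 0 TPM in treated plants and 5.06 and 5.32 TPM in untreated plants (log2 fold -2.59, SE 0.22, limma adjusted p = 0.0118).

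Other genes that fell belonged to separate functions. The B12D protein gene LOC_Os07g41340 had 0.96 and 0.25 TPM in treated plants, against 13.9 and 10.6 TPM in untreated plants, a log2 fold of -3.07 (SE 0.28, limma adjusted p = 0.0128). LOC_Os04g52440, a probable transaminase of gamma-aminobutyrate, had 0.16 and 0.89 TPM in treated plants against 8.74 and 12.2 TPM in untreated plants, and was not called with a pseudocount of 0.1. The metallothionein gene MT3B, LOC_Os05g11320, had 36.1 and 19.8 TPM in treated plants and 117 and 149 TPM in untreated plants. Each of these 3 genes was low in both treated libraries. MT3B kept its call in 6 of 13 alternatives that used all the libraries of the comparison and was lost, among others, with TMM and median-of-ratios scaling. The germin-like gene LOC_Os08g08980, of a family of cell-wall cupins, had 18.9 and 23.0 TPM in treated plants against 54.5 and 58.0 TPM in untreated plants. The preceding germin-like locus, LOC_Os08g08970, had 69.2 and 101 TPM in treated plants and 233 and 234 TPM in untreated plants and missed the call (limma adjusted p = 0.0514). The light-dependent chlorophyll enzyme gene PORA, LOC_Os04g58200, had 32.7 and 29.7 TPM in treated plants, against 70.35 and 60.4 TPM in untreated plants. It kept its call in 5 of the 13 alternatives and was lost, among others, with TMM and median-of-ratios scaling and a pseudocount of 5. LOC_Os10g04270, a jacalin-like lectin gene, had 16.5 and 16.6 TPM in treated plants and 34.7 and 33.9 TPM in untreated plants. That change, at a log2 fold of -1.01 (SE 0.14, limma adjusted p = 0.0438), was the smallest among the genes that fell. The call was kept in 4 of the 13 alternatives and lost, among others, with TMM scaling, a pseudocount of 5, no filter and the length curve removed.

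A further group of genes that fell was chosen here after the values were seen, as the called genes with an annotated product that the rule above had not named. Phytoglobins bind oxygen and nitric oxide, and the non-symbiotic hemoglobin gene LOC_Os03g13140 had 64.1 and 62.1 TPM in treated plants, against 138 and 177 TPM in untreated plants. LOC_Os05g47540, matched to an Arabidopsis N-methyltransferase of phosphocholine synthesis, had 30.3 and 33.7 TPM in treated plants and 71.2 and 80.5 TPM in untreated plants. LOC_Os07g31720, matched to an Arabidopsis C2-domain protein of abscisic acid signalling, had 78.5 and 83.2 TPM in treated plants and 211 and 184 TPM in untreated plants. All 3 were low in both treated libraries. For 2 other genes the folds in ZH11 and OE1 lay close together. LOC_Os12g08760, matched to carboxyvinyl-carboxyphosphonate phosphorylmutase, had 29.4 and 23.9 TPM in treated plants and 68.4 and 75.8 TPM in untreated plants, with log2 folds of -1.41 in ZH11 and -1.49 in OE1. LOC_Os01g32460, matched to a rice homolog of the repressor NRR, had 6.52 and 4.04 TPM in treated plants and 17.2 and 19.5 TPM in untreated plants, with log2 folds of -1.65 in ZH11 and -1.53 in OE1. LOC_Os01g32460 kept its call in 6 of 13 alternatives that used all the libraries of the comparison and was lost, among others, with TMM and median-of-ratios scaling.

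**Figure D3:**
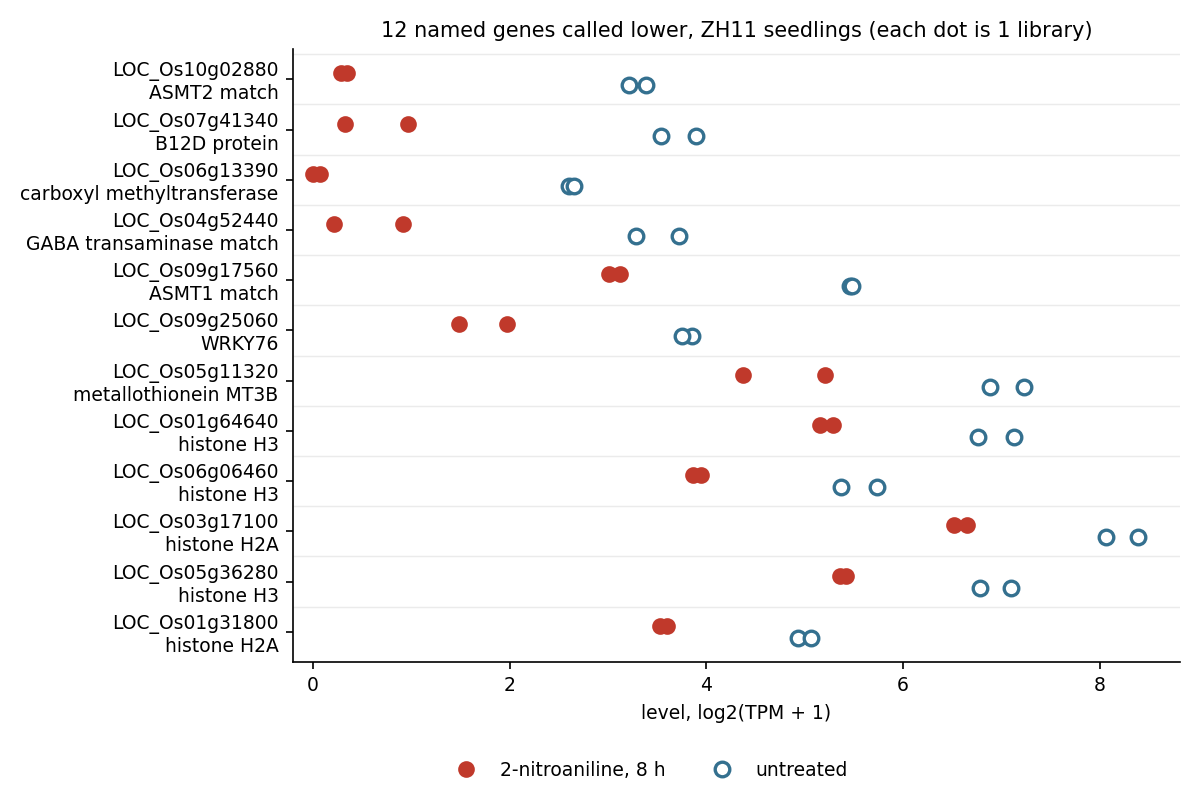
Level of the 12 named genes with the widest gap among those called lower, on the log2(TPM + 1) scale, with each ZH11 library as a dot (red filled, treated; blue open, untreated). Both treated libraries lie to the left of both untreated ones in every row, which follows from the choice of rows by gap. Of the 12 rows 5 are histone genes.

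Of the 86 gene lists, the histone list held the most genes that fell. Histones package DNA, and the bulk of the H3.1 and H3.2 type is made while DNA is copied, whereas H3.3 is made throughout the cell cycle. The list of histone-fold and linker-histone domains had 65 genes, of which 10 fell (15.4%, against 0.115% of all genes tested), none rose and 55 were not called, with a median of -0.38. By their Swiss-Prot match 45 of the 65 are core or linker histones and 20 are other proteins with such a domain. None of those 20 was called, and their median was 0.18.

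The fall was uneven between histone classes. Of 6 genes matched to H3.2, 5 fell, with a class median of -1.50 and a summed level of 124 and 135 TPM in treated plants, against 348 and 442 TPM in untreated plants. LOC_Os01g64640 had 38.1 and 34.6 TPM in treated plants and 107 and 139 TPM in untreated plants (log2 fold -1.72, SE 0.16, limma adjusted p = 0.0169). The sixth, LOC_Os11g05730, had 8.34 and 17.1 TPM in treated plants and 28.0 and 32.7 TPM in untreated plants. By contrast none of the 3 genes matched to H3.3 was called, and their folds lay between -0.19 and -0.16. They summed to 1964 and 1406 TPM in treated plants and to 1820 and 1947 TPM in untreated plants, so that treated replicate 1 was above both untreated libraries and treated replicate 2 below both. No test of the difference between the classes was made.

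The other H3.2 matches that fell were LOC_Os05g36280, with 41.9 and 39.9 TPM in treated plants and 109 and 136 TPM in untreated plants, LOC_Os06g06460, with 13.6 and 14.4 TPM against 40.4 and 52.5 TPM, LOC_Os06g06510, with 18.7 and 24.6 TPM against 51.4 and 68.9 TPM, and LOC_Os04g34240, with 3.31 and 4.21 TPM against 11.6 and 12.4 TPM. In each of them the higher treated library lay below the lower untreated one. LOC_Os06g06460 and LOC_Os06g06510 are near neighbours on chromosome 6, with 3 loci between them.

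Of 8 genes matched to ordinary H2A, 3 fell. LOC_Os03g17100 had 99.4 and 90.6 TPM in treated plants against 267 and 336 TPM in untreated plants, a log2 fold of -1.65 (SE 0.15, limma adjusted p = 0.0128). LOC_Os01g31800 had 11.1 and 10.5 TPM in treated plants against 29.4 and 32.5 TPM in untreated plants. The third, LOC_Os05g02300, had 27.0 and 26.2 TPM in treated plants against 68.7 and 78.8 TPM in untreated plants. Among 9 H2B genes 1 fell, LOC_Os08g38300, with 43.8 and 48.2 TPM in treated plants and 103 and 109 TPM in untreated plants. Among 9 H4 genes 1 fell, LOC_Os02g45940, with 43.7 and 44.2 TPM in treated plants and 95.6 and 94.8 TPM in untreated plants. Several H4 genes were low mainly in treated replicate 2. The class summed to 1421 TPM in treated replicate 1 and 693 TPM in treated replicate 2, with 1419 and 1411 TPM in untreated plants. The 4 H1 genes had folds from -0.38 to 0.21, and none was called. Histone genes of a class are near copies of each other, which makes their separate levels uncertain, and the list has a median length of 950 nt. Genes of over 500 and up to 1000 nt had a median change of 0.02 in treated replicate 1 and -0.44 in treated replicate 2. The H3.2 class had a median change of -1.64 in treated replicate 1 and -1.45 in treated replicate 2. None of the 10 histone genes was called when untreated replicate 1, untreated replicate 2 or any OE1 library was left out, or with library weights or the ZH11 libraries alone, and 20 histone genes were called without treated replicate 1. With the length curve removed from each library 10 histone genes were called, and LOC_Os02g45940 and LOC_Os06g06510 were no longer among them.

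**Figure D4:**
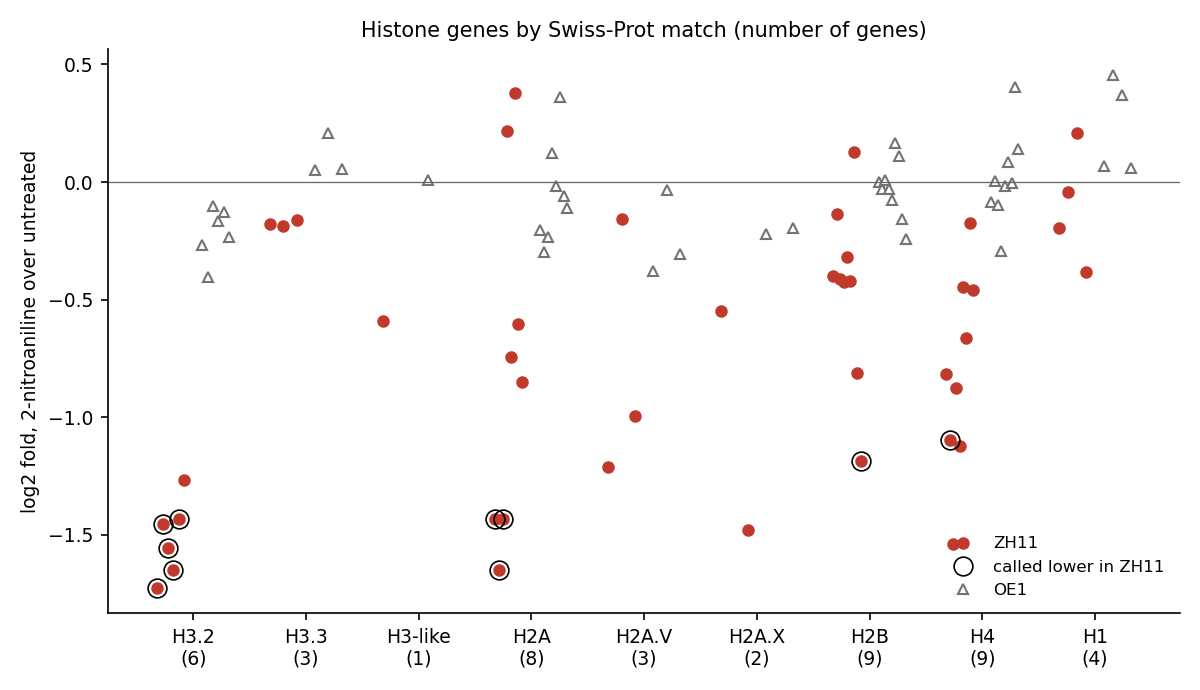
Log2 fold of 2-nitroaniline over untreated for each of the 45 histone genes, by class, in ZH11 (red circles) and in OE1 (grey triangles), with black rings on the 10 genes called lower in ZH11. The H3.2 matches lie between -1.72 and -1.27 in ZH11 and between -0.40 and -0.10 in OE1, and the H3.3 matches lie near 0 in both.

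Other groups of genes moved differently in the treated libraries. The NB-ARC genes, which encode immune receptors and are long, had a median of -0.09 in treated replicate 1 and 0.65 in treated replicate 2. Kinesin genes, for microtubule motors, had -0.41 in replicate 1 and 0.33 in replicate 2, and MCM genes, for the replicative helicase, -0.41 and 0.15. Short genes did the reverse in size. Lipid transfer protein genes had -0.17 in replicate 1 and -0.81 in replicate 2, and ribosomal genes -0.15 and -0.49. No member of these 5 lists was called by limma. An unadjusted p under 0.05 was found for 14 of 279 NB-ARC, 2 of 44 kinesin and 2 of 14 MCM genes. It was found for 20 of 75 lipid transfer and 85 of 323 ribosomal genes, and for 3145 of all 24137 genes. The cellulose synthase list, of 39 genes, had -0.23 in replicate 1 and 0.31 in replicate 2. The xyloglucan hydrolase and light-harvesting lists were below 0 in both treated libraries, again without a call: the 23 xyloglucan hydrolase genes at -0.31 in replicate 1 and -0.52 in replicate 2, and the 23 light-harvesting genes at -0.34 and -0.57. In these 2 lists 9 and 14 genes had an unadjusted p under 0.05. In all, 60 of the 86 lists held no called gene. Of the 73 called genes 46 were in at least 1 list and 27 in none.

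**Figure D5:**
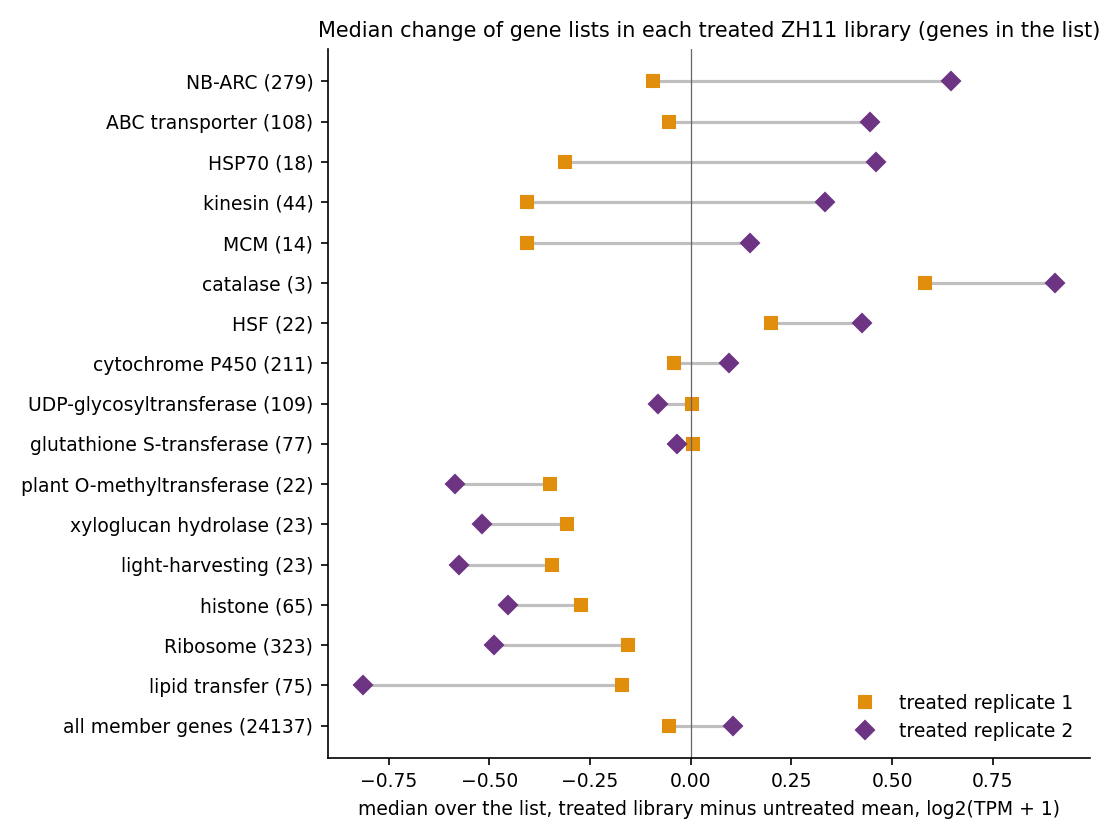
Median change of 16 gene lists and of all 24137 genes in treated ZH11 replicate 1 (orange squares) and replicate 2 (purple diamonds), each minus the untreated mean on the log2(TPM + 1) scale, with the number of genes in parentheses. The long-gene NB-ARC list lies at -0.09 and 0.65 and the short-gene lipid transfer list at -0.17 and -0.81, while P450, glycosyltransferase and glutathione S-transferase lists stay near 0 in both; the 16 lists were picked after their values were seen.

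The replicate numbers separate the ZH11 libraries by read length, so each number was also taken alone. Direction cannot change in such a pair for genes whose groups do not overlap, so only the sizes are given. Of the 73 called genes 68 were at least 2-fold apart both in the pair of replicate 1 libraries and in the pair of replicate 2 libraries. The median log2 difference of the genes called higher was 1.61 in the replicate 1 pair and 1.74 in the replicate 2 pair. For the genes called lower it was -1.42 and -1.63. With 1 library of each kind in each pair no test was possible within a pair.

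The authors' deposited table of this comparison lists 81 genes as up and 34 as down. Here 35 of the 81 genes up in the authors' deposited table were called, 43.2% of that list and 79.5% of the 44 called higher. Likewise 23 of the 34 genes down in the authors' deposited table were called, 67.6% of that list and 79.3% of the 29 called lower. The genes up in the authors' deposited table included 12 longer than 3000 nt, against 2 of the 44 called here. The largest entries of the authors' deposited table rested on 1 library. LOC_Os03g01350 has a log2 fold of 24.4 in the authors' deposited table, with an estimated count of 1172 in treated replicate 2 and 0 in the other 3 ZH11 libraries. LOC_Os10g38212 has 22.1 in the authors' deposited table, with an estimated count of 299 in treated replicate 2 and 0 elsewhere in ZH11. Both were listed at 0 TPM in treated replicate 1 and in the untreated plants and were not among the 24137 genes.

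The ZH11 calls were set beside the response of OE1, which shares no library with ZH11 but entered the same fit, with 1 spread per gene for both. Over the 44 genes that rose in ZH11 the median log2 fold was 1.64 in ZH11 and 0.85 in OE1. For 43 of them the OE1 fold was above 0, for 9 it was called (61 genes, 0.241% of those tested, were called in OE1), and for all 44 it was smaller than in ZH11. Over the 29 genes that fell the medians were -1.55 in ZH11 and -0.27 in OE1, with 3 called in OE1. For 3 of the 29 the OE1 fold was above 0, where the median OE1 fold over all 24137 genes was -0.04. The genes were chosen for a large fold in ZH11, so the comparison of medians is a description. With the shared spread a ZH11 call also favours genes whose OE1 replicates lie close together. The OE1 counts over these genes are therefore descriptions too. Some genes had nearly the same fold in both. The dioxygenase gene LOC_Os04g39980 had 1.36 in ZH11 and 1.29 in OE1, and LOC_Os01g08440 had 2.76 and 2.47.

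The test of the difference between the 2 responses called 8 of 25281 genes, 0.0316%, and 3 of them were among the 24137. None of the 24137 was called with a pseudocount of 0.1 or when any OE1 or untreated ZH11 library was left out. Without treated ZH11 replicate 1 the counts were 1338 higher and 1298 lower, and without treated replicate 2 15 and 7. At an unadjusted p under 0.05 the count was 1630. The glycosyltransferase gene LOC_Os09g34250 had the only larger rise in ZH11 that passed. In OE1 it had 15.8 and 14.0 TPM in treated plants and 7.08 and 6.71 TPM in untreated plants, and the difference of log2 folds was 2.42 (SE 0.22, limma adjusted p = 0.0378). ASMT1 (LOC_Os09g17560) did not show its ZH11 fall in OE1, where it had 15.9 and 16.4 TPM in treated plants and 14.1 and 13.6 TPM in untreated plants (difference -2.61, SE 0.20, limma adjusted p = 0.0187). Untreated plants of the genotypes also differed for this gene, at 14.1 and 13.6 TPM in OE1 and 43.0 and 43.65 TPM in ZH11. The third gene, the jacalin-like lectin gene LOC_Os12g14440, had 7.55 and 10.4 TPM in treated ZH11 plants and 13.0 and 11.2 TPM in untreated ZH11 plants and was not called in ZH11. In OE1 it had 45.0 and 55.1 TPM in treated plants and 4.01 and 2.77 TPM in untreated plants. Over the 65 histone-list genes the median OE1 fold was -0.02. The 10 that fell in ZH11 had OE1 folds from -0.40 to 0.0054, of which the H4 gene LOC_Os02g45940 had the only one above 0. The lowest adjusted p of the difference was 0.192 in limma among the 10 that fell in ZH11, so their responses were not shown to differ between the genotypes.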

How the data were processed

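TPM values per gene and library were deposited by the authors for 8 libraries in 4 groups of 2, scaled to the same total in each library. Gene lengths came from the same deposited matrix. The authors' deposited table of genes called for this comparison gave each gene an estimated count per library, a log2 fold change, a linear ratio (fold) and a p-value, which were used to count shared calls. Trimmed read counts and the percent of GC were taken from the deposited trimming table. The submitters' processing notes name Cufflinks 2.2.1. Sources used here name no aligner, counter, strand setting, test or genome build, so no coordinates are printed and chromosomes were read from the locus names.

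TPM were used as deposited. The 25281 genes that reached 1 TPM in 2 or more of all 8 libraries were fitted with limma 3.58.1 (R 4.3.3) on log2(TPM + 1) as 4 group means with an eBayes trend. Contrasts were treatment in ZH11, treatment in OE1 and their difference, and p-values were adjusted by Benjamini-Hochberg over all genes fitted. Log2 folds understate the change of genes with low TPM. The code was tested on simulated data. edgeR 4.0.16 gave only TMM factors for an alternative. Count tests were not run, since the authors deposited estimated counts only for genes they called.

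Lists were read from Pfam and KEGG annotation in the matrix, with no list test. Members and lists were chosen with earlier results of these data known. Named genes had at least 5 TPM on average in the higher ZH11 group and an annotated function: the 12 called genes with the widest gap in each direction, up to 2 called or gap genes per list and direction, members of small lists, and the old yellow enzyme genes. Genes outside this rule, among them neighbours of named genes, were picked after their values were seen. Protein names are those of Swiss-Prot matches, and interval estimates from counts were not made because TPM hold no counts.

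Alternatives were TMM and median-of-ratios scaling, pseudocounts of 0.1 and 5, no filter and a filter at 5 TPM, a loess curve on gene length removed per library, no trend, a replicate block with and without that curve, library weights, the ZH11 libraries alone, no fold threshold, other gaps, and each library left out. A term for read length was added after the data were seen. Annotation summaries, the authors' other comparison tables and raw-read statistics were not used.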

Additional observations from a re-analysis of the deposited data

Results flagged for a closer look

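5 genes had responses that differed or ran in opposite directions in ZH11 and OE1. A tested difference of the log2 folds, ZH11 minus OE1, passed for LOC_Os09g34250 (2.42), for ASMT1, LOC_Os09g17560 (-2.61), and for the lectin gene LOC_Os12g14440 (-3.95, limma adjusted p = 0.0229).

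In the remaining 2 genes every ZH11 library moved one way and every OE1 library the other, and the test of the difference did not pass. The P450 gene LOC_Os07g44110 had 24.5 and 36.0 TPM in treated and 7.48 and 7.63 TPM in untreated ZH11 plants, and 8.98 and 6.59 TPM in treated and 16.4 and 17.1 TPM in untreated OE1 plants (difference 2.87, limma adjusted p = 0.0699). The carboxyl methyltransferase gene LOC_Os06g13390 had 0.05 and 0 TPM in treated and 5.06 and 5.32 TPM in untreated ZH11 plants, and 0.94 and 1.01 TPM in treated and 0.34 and 0.65 TPM in untreated OE1 plants (difference -3.004, limma adjusted p = 0.0563).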

How the results depend on the processing

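The direction of the called genes was the same under the alternative fits listed here. That held for all 73 or, with the filter at 5 TPM, for the 70 that were fitted. Since the ZH11 groups of all 73 did not overlap, leaving out a library, another pseudocount or library weights could not change that direction. The number of calls was not stable. Against 44 higher and 29 lower, limma called 13 and 14 with no filter, 101 and 65 with the length curve removed, 7 and 1 with library weights, 117 and 88 with a read-length term, and 0 and 0 with the ZH11 libraries alone, where 551 higher and 693 lower genes had an unadjusted p under 0.05. With a replicate block it called 17 and 7. Same-numbered ZH11 libraries deviated together with r = 0.23, over 1 pair, so the numbers were not taken as pairs. Leaving out a library gave 0 to 1282 higher and 0 to 1353 lower: 91 and 80 without treated ZH11 replicate 2, 1282 and 1353 without treated replicate 1, 6 and 5 without untreated replicate 1, none without untreated replicate 2, and 5 to 7 and 2 without any OE1 library. The cause was not tested.

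P450 calls (6 higher) became 3 with no filter, 11 with the length curve or a read-length term, 3 with weights, 0 with ZH11 alone and 0 to 15 without a library. Glycosyltransferase calls (4) became 7 with either length term, 1 with weights, 0 with ZH11 alone and 0 to 13 without a library. Glutathione S-transferase calls (3) became 0 with no filter, weights, a replicate block or ZH11 alone, 7 with the length curve, 5 with the read-length term and 0 to 8 without a library. Histone calls (10 lower) became 1 with a replicate block, 0 with weights or ZH11 alone, and 0 to 20 without a library.

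The difference of responses (1 higher, 2 lower) gave 2 and 4 with TMM scaling, 2 higher with median-of-ratios scaling or no filter, 0 and 0 with a pseudocount of 0.1 or either replicate block, 4 lower with a pseudocount of 5, 4 and 5 with the length curve, 0 and 1 with weights, and 0 to 1338 and 0 to 1298 without a library. Genes past the gap (107 higher, 87 lower) were 40 and 29 with a pseudocount of 5, 211 lower with one of 0.1, 308 and 372 at a gap of 1.5-fold, 19 and 11 at a gap of 2, and 156 to 931 higher and 178 to 1112 lower without a library. Single genes with small folds changed sign: catalase A, LOC_Os02g02400, to -0.0057 with TMM scaling, -0.025 with the length curve, alone or with the replicate block, and -0.35 without treated ZH11 replicate 2, and the old yellow enzyme genes ChrSy.fgenesh.gene.69 to -0.10 and MSTRG.15563 to 0.27 without treated ZH11 replicate 2 and LOC_Os02g35310 to 0.075 without untreated ZH11 replicate 2. Over all single left-out libraries these 4 ran from -0.35 to 0.44, -0.10 to 0.76, -1.54 to 0.27 and -0.47 to 0.075. With 2 pools per group, TPM and no counts, the precision of low genes cannot be given.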
